A study of Bos taurus with 6 samples.

Results

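The 3 GADD45 genes (GADD45A, GADD45B and GADD45G) and 4 genes of the p53 response (MDM2, CDKN1A, BBC3 and PMAIP1) were followed in bovine granulosa cells exposed to fibroblast growth factor 18 (FGF18), a secreted ligand of FGF receptors. The genes were taken by their symbol in the annotation of the array platform. Of the 7 genes, 5 were measured, by 6 probes, among 15229 named genes on the array. GADD45A had 2 probes and GADD45B, GADD45G, MDM2 and CDKN1A had 1 each, while BBC3 and PMAIP1 had no probe under these symbols and were not analysed here. Each gene was read by its brightest probe, and the second probe of GADD45A is given beside it.

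Granulosa cells line the ovarian follicle, nurse the oocyte and produce oestradiol. They came from follicles of 2 to 6 mm of Holstein crossbreds from an abattoir and were cultured for 5 days without serum, in MEM/F12 with 10 ng/ml of FSH and the same concentration of insulin, both also given to the controls. The treated group had FGF18 at 10 ng/ml for 2 h and the control group was untreated. RNA of both groups was hybridised together on 6 two-colour arrays, forming 3 biological replicates with 2 arrays of opposite dye orientation each. The number of animals behind a replicate is not given in the labels. The source name of the control ends in T0 and that of the treated cells in T2, and no label says whether untreated cells were collected at the start or after 2 h. FGF18 and 2 h of further culture therefore cannot be told apart from the labels alone.

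A spot counted as above background where it exceeded the mean of the negative control spots of its array and colour by 2 SD, and between 45.7% and 73.5% of probes did so per channel. One array stood apart: on that of replicate 2 with the control in Cy5, the E1A spike-in spots had median raw intensities of 1100 (Cy5) and 483 (Cy3). The other 5 arrays ranged from 9505 to 12293 for Cy5 and from 5122 to 15970 for Cy3. Of 10 granulosa markers, 6 (AMH, INHA, FST, NR5A2, GATA4 and GJA1) were above background on all 6 arrays in both conditions. FSHR, the FSH receptor, was above it in 5 FGF18 channels and 6 control channels, CYP19A1, aromatase, in 2 and 4, and FOXL2 and HSD17B1 in 0. Of 10 theca and stroma markers, 7 were above background on all arrays, with a mean log2 intensity over the list of 9.92 to 10.1 in the FGF18 replicates and 9.95 to 10.1 in the control replicates. The same held for 1 of 6 endothelial, 3 of 7 leukocyte and blood and 1 of 6 oocyte markers. The part of other cells in the values below was not tested, and in RNA of whole cultures fewer cells of a type and less RNA per cell cannot be told apart.

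GADD45 proteins are small stress-induced proteins that bind PCNA, CDK1 and the kinase MAP3K4, and through these act on DNA repair, the G2/M transition and the p38 and JNK kinases. The transcription factor p53 induces GADD45A, the cell cycle inhibitor CDKN1A, the ubiquitin ligase MDM2, which in turn degrades p53, and the BH3-only death genes BBC3 and PMAIP1. GADD45B and GADD45G are best known as genes induced by cytokines, TGF-beta and growth signals without a need for p53. In granulosa cells, survival or death decides whether a follicle grows or undergoes atresia.

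Treated and untreated cells were compared to find transcripts that differ 2 h after FGF18 was added. MDM2 was higher with FGF18 on all 6 arrays, and GADD45B and GADD45A were higher in all 3 replicates and on 5 of 6 arrays each. GADD45G was higher in 2 replicates and lower in 1, and CDKN1A was lower in 2 and higher in 1. None of these differences passed the test: 0 of 5 genes had an adjusted p under 0.05 in limma with Benjamini-Hochberg adjustment over all genes (adjusted p = 0.986 for each), nor an unadjusted p under 0.05. The same adjusted rule called 0% of the 15229 genes, and 2.3% were higher and 1.18% lower at an unadjusted p under 0.05. Of the 5 genes, 3 were higher in all 3 replicates and 0 lower, where 12.1% of all genes were higher and 12% lower by this rule. Exact sign changes of 3 replicates allow no p under 0.25, so no such test was made.

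All ratios are log2 of FGF18 over control, given as mean ± SD of the 3 replicates, each the mean of its 2 arrays. All levels are log2 intensities after normalization of the separate colours, and are compared only within a probe. Intervals are 95% intervals of the fit across all genes, and they cover the spread between these replicates only. Their width and bounds also depend on the prior variance that the fit shares across genes. With a prior that follows intensity and is robust to outliers (trend and robust prior), that of GADD45B was -0.20 to 0.77, against -0.01 to 0.59 here.

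**Figure D1:**
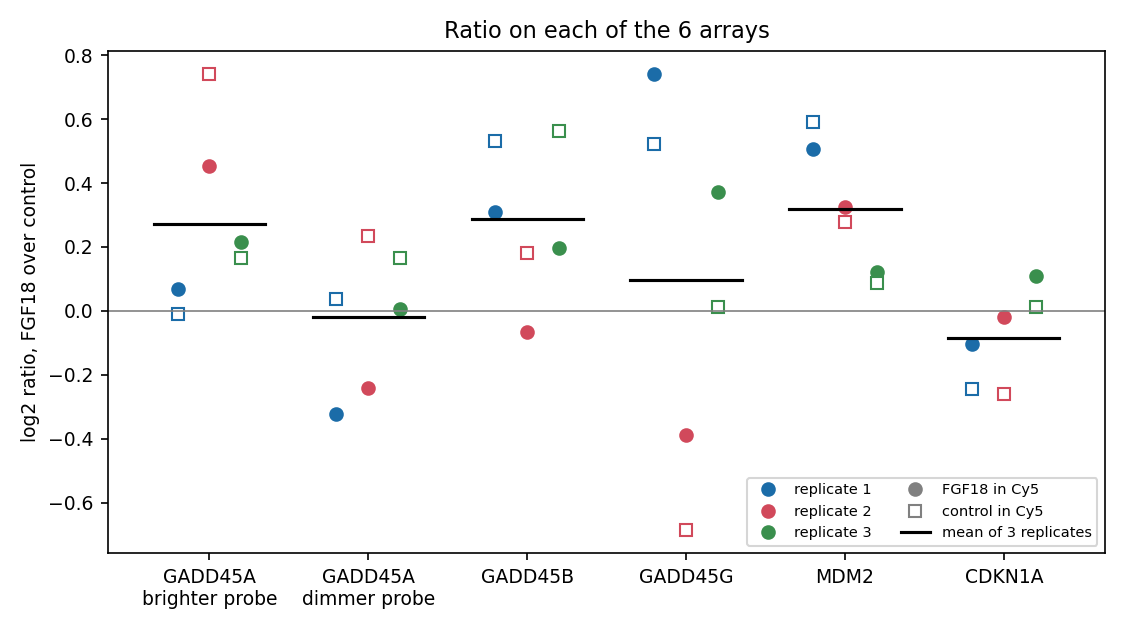
Log2 ratio of FGF18 over control (y axis) on each array for the 6 probes (x axis). Colours mark the replicates, filled circles the arrays with FGF18 in Cy5, open squares those with the control in Cy5, and black lines the mean of the 3 replicates. All 6 points of MDM2 lie above 0, and those of GADD45G spread from -0.69 to 0.74.

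GADD45B, which binds and restrains the JNK kinase MAP2K7, had ratios of 0.42, 0.06 and 0.38 in replicates 1, 2 and 3. Its level in the control was 11.33, 12.85 and 11.88, and with FGF18 it was 11.75, 12.90 and 12.26. Both conditions were highest in replicate 2 and lowest in replicate 1, and the 2 groups overlapped. The mean ratio was 0.29 ± 0.20 (1.22-fold, n = 3), with an interval from -0.01 to 0.59, so the upper bound was 1.5-fold. GADD45B was the brightest of these genes against its own detection limit, with spots 23.8 to 59.9 times the limit.

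The 3 control samples differed from each other in GADD45B by more than FGF18 and control did. Between the highest and lowest control the gap was 1.52 on the log2 scale (2.87-fold), and between the FGF18 samples it was 1.16 (2.23-fold). The mean GADD45B ratio was 0.15 over the arrays with FGF18 in Cy5 and 0.43 over those with the control in Cy5. In all 3 replicates the array with FGF18 in Cy5 gave the lower ratio (0.31, -0.06 and 0.20, against 0.53, 0.18 and 0.56). The test of this dye term had an adjusted p of 0.457 in limma, where it called 0.427% of all genes. That fit took the 6 arrays as independent and did not use the pairing of arrays by replicate. The single array on which GADD45B was lower with FGF18 was that of replicate 2 with FGF18 in Cy5, at -0.06.

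GADD45A, the member of the family induced by p53 and by DNA damage, had ratios of 0.03, 0.60 and 0.19 by its brighter probe. Its control levels were 9.21, 9.21 and 8.93 and its FGF18 levels 9.24, 9.80 and 9.12 in replicates 1, 2 and 3. Replicate 2 held the largest difference, and the levels of the groups overlapped. The mean ratio was 0.27 ± 0.29 (1.21-fold, n = 3), with an interval from -0.13 to 0.68 and an upper bound of 1.60-fold. Without replicate 2 the ratio was 0.11, and without replicate 1 it was 0.39. By dye orientation the values were 0.25 where FGF18 was in Cy5 and 0.30 where it was in Cy3.

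The second probe of GADD45A did not show the difference seen by the brighter one. Its ratios were -0.14, 0.00 and 0.09, with a mean of -0.02 ± 0.12 (n = 3) and an adjusted p of 0.983 in limma over all probes. The gap between the probes was 0.17, 0.60 and 0.10 in replicates 1, 2 and 3, so it was widest where the brighter probe was highest. The dimmer probe lay close to background, at 0.886 to 1.27 times its detection limit, against 2.4 to 7.08 times for the brighter one, and it was below the limit on 1 FGF18 channel. In the authors' deposited table the dimmer probe of GADD45A had -0.15, -0.016 and 0.078, with a mean of -0.028. Which part of the transcript each probe reads is not stated in the sources used here.

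GADD45G, the member first described as induced by cytokines, had the widest spread of the 5 genes. Its ratios were 0.63, -0.54 and 0.19 in replicates 1, 2 and 3. Both arrays of replicate 1 were above 0, at 0.74 and 0.52, and both arrays of replicate 2 were below it, at -0.39 and -0.69. The mean was 0.10 ± 0.59 (n = 3), with an interval from -0.68 to 0.87, and the SD of GADD45G lay at the 87.7th percentile of the 11262 genes above background on at least 3 arrays in both conditions.

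This spread of GADD45G sat in the untreated cells. Their levels were 9.04, 10.25 and 9.64, a range of 1.21 (2.31-fold), and the levels with FGF18 were 9.67, 9.71 and 9.83, a range of 0.16 (1.12-fold). The sign of the ratio followed the control: it was highest in the replicate with the lowest control level and below 0 in the one with the highest. A ratio and its own control level share a value, so this order is a description and not a relation between 2 measures. The mean ratio turned to -0.17 without replicate 1 and to -0.05 with the control in Cy5 alone, was 0.41 without replicate 2, and was 0.24 with FGF18 in Cy5 alone.

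**Figure D2:**
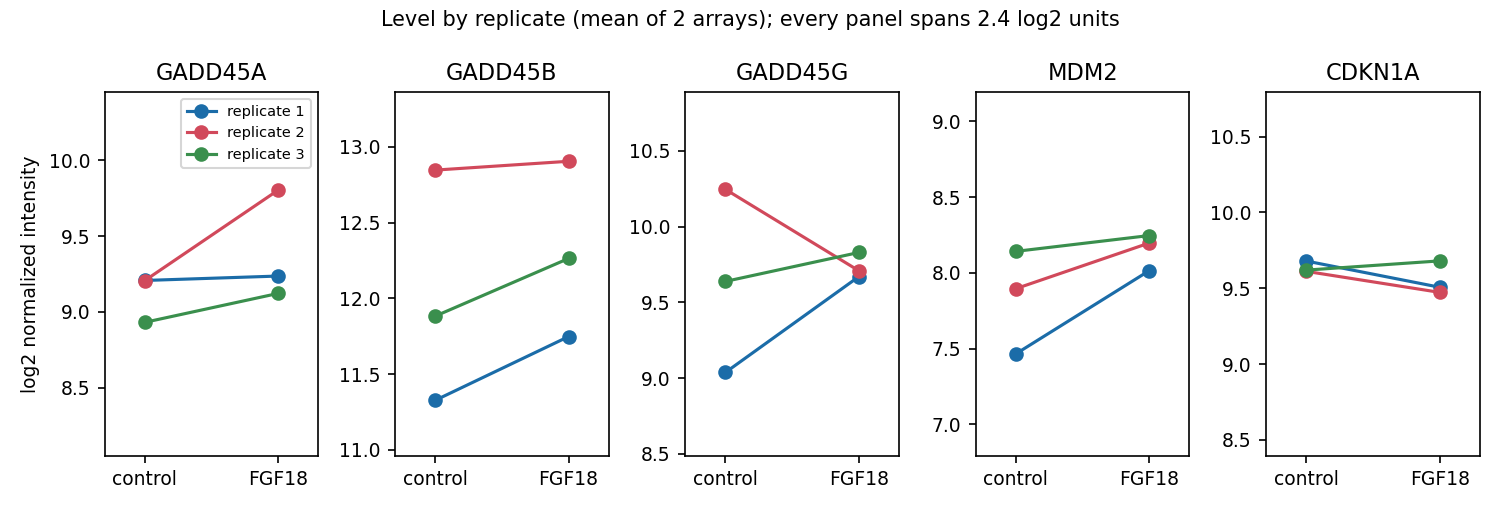
Log2 normalized intensity (y axis) in control and FGF18 samples (x axis) for the 5 genes, 1 line per replicate. Every panel spans the same number of log2 units, so slopes can be compared but heights cannot. GADD45B lines stand apart by replicate, and GADD45G controls spread from 9.04 to 10.25 while its FGF18 samples lie between 9.67 and 9.83.

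MDM2, the ubiquitin ligase that holds p53 in check, had ratios of 0.55, 0.30 and 0.10 in replicates 1, 2 and 3. The 2 arrays of each replicate gave nearly the same value, with 0.51 and 0.59 in replicate 1, 0.33 and 0.28 in replicate 2, and 0.12 and 0.09 in replicate 3. Their largest gap was 0.083, the smallest among the 6 probes, so the spread of MDM2 was between replicates and not between dyes. Its mean was 0.32 ± 0.22 (1.25-fold, n = 3), with an interval from -0.01 to 0.65 and an upper bound of 1.56-fold. By dye orientation the values were 0.32 and 0.32.

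Of the 5 genes, MDM2 alone kept 1 sign over the 6 arrays, where 4.47% of all genes were higher on 6 of 6 arrays and 2.72% lower. Its control levels were 7.47, 7.90 and 8.14, and its FGF18 levels were 8.02, 8.20 and 8.25. The control of replicate 3 lay above the FGF18 level of replicate 1, so the groups overlapped across replicates although each pair went the same way. As in GADD45G, levels ranged more widely in the control (0.68) than with FGF18 (0.23). MDM2 spots were 1.44 to 2.52 times their detection limit, so this ratio is of a dim probe. Among the 11262 genes above background in both conditions, 5.28% had a ratio at least as high as MDM2, 6.89% as high as GADD45B and 7.66% as high as GADD45A.

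CDKN1A, the p21 protein that binds cyclin-dependent kinases and halts the cell cycle, had ratios of -0.17, -0.14 and 0.06 in replicates 1, 2 and 3. Control levels were 9.68, 9.61 and 9.62, within 0.068 of each other, and FGF18 levels were 9.51, 9.47 and 9.68. The mean was -0.08 ± 0.13 (n = 3), with an interval from -0.31 to 0.14. In this fit it was the tightest interval of the 5 genes, bounded by a 1.10-fold rise and a 1.24-fold fall. With the trend and robust prior it was -0.53 to 0.36, wider than that of MDM2 (-0.06 to 0.70). The mean was 0.02 with median centring in place of loess, so its sign depended on the scaling. By dye orientation it was -0.004 where FGF18 was in Cy5 and -0.16 where it was in Cy3.

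**Figure D3:**
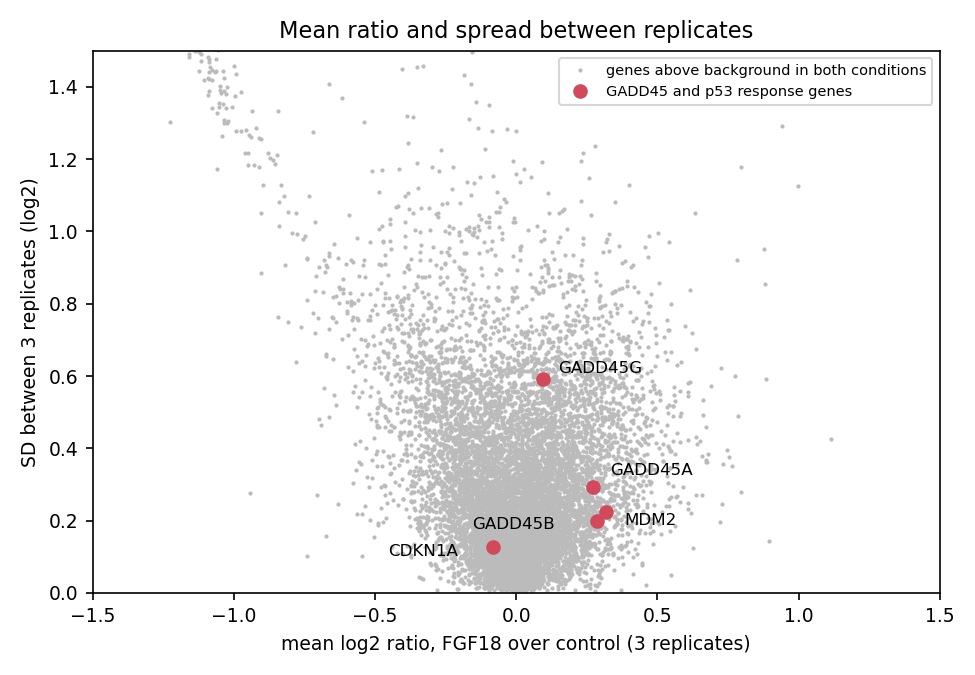
Mean log2 ratio of FGF18 over control (x axis) against the SD between the 3 replicates (y axis). Grey points are the genes above background in both conditions, of which 93 of 11262 lie outside the axes, and red points the 5 genes. GADD45A, GADD45B and MDM2 lie together at ratios from 0.27 to 0.32, GADD45G lies near 0 with an SD of 0.59, and CDKN1A lies just below 0 with an SD of 0.13.

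The median ratio of the 5 genes was 0.27, and that of all 15229 genes was -0.01. Their order was not the same in each replicate. In replicate 1 the highest ratios were those of GADD45G (0.63) and MDM2 (0.55), in replicate 2 that of GADD45A (0.60), and in replicate 3 that of GADD45B (0.38). GADD45A and GADD45G went opposite ways in replicate 2, at 0.60 and -0.54, although they belong to 1 family. Without the array with dim spike-in spots, the means were 0.22 for GADD45A, 0.25 for GADD45B, 0.14 for GADD45G, 0.33 for MDM2 and -0.04 for CDKN1A, and none passed the test. The authors' deposited table gave means of 0.26 for GADD45A, 0.29 for GADD45B, 0.11 for GADD45G, 0.30 for MDM2 and -0.07 for CDKN1A.

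**Figure D4:**
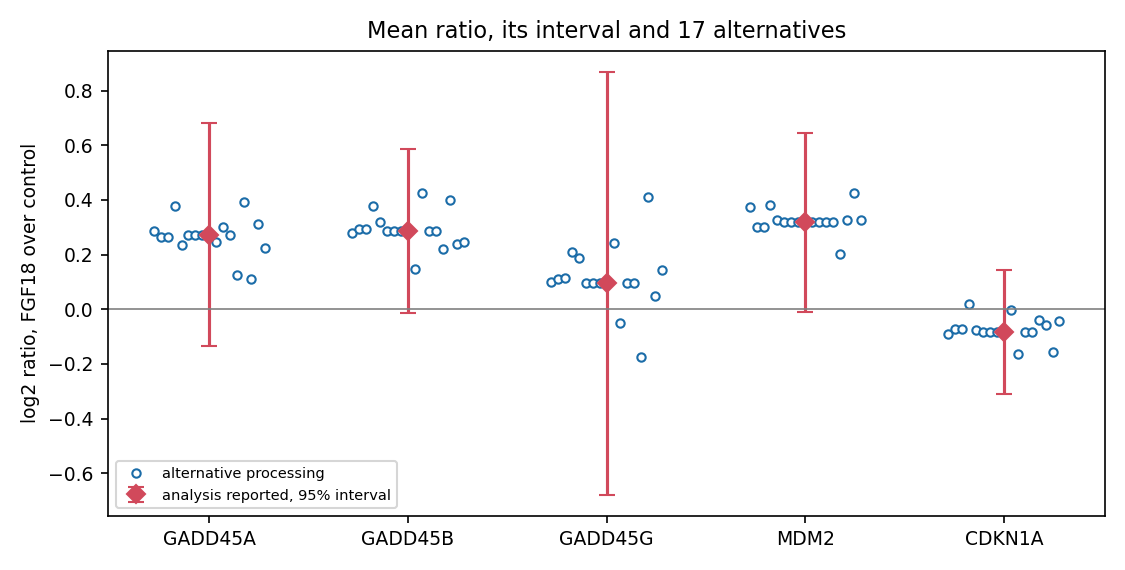
Mean log2 ratio of FGF18 over control (y axis) for the 5 genes (x axis), with its 95% interval (red) and its value under 17 other ways of processing or of choosing arrays (blue circles). The intervals of all 5 genes include 0, and the circles of GADD45G and CDKN1A lie on both sides of it.

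The wider pathway was read through 5 lists of 83 genes, of which 74 were measured and 66 exceeded background in both conditions (3 arrays or more each). None of the 74 passed the adjusted threshold in limma. At an unadjusted p under 0.05 in limma, 2 were higher and 3 lower, where 2.3% of all genes were higher and 1.18% lower. In all 3 replicates, 8 were higher and 8 lower, or 10.8% each way, close to the 12.1% and 12% of all genes. On all 6 arrays, 4 of the 74 were higher and 4 lower, where 4.47% of all genes were higher and 2.72% lower. The median ratio of the 74 genes was 0.01. Some genes named below were picked by the lowest unadjusted p of their list, which favours the same sign on all arrays.

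Among p53 regulators (16 of 18 measured), 1 gene was higher and 1 lower in all 3 replicates, 0 passed the test and the median was 0.03. MDM4, the relative of MDM2 that blocks p53, had 0.11 ± 0.13, with ratios of 0.14, 0.22 and -0.03. CCNG1, the p53-induced cyclin G1, had -0.23 ± 0.53, from -0.80 in replicate 1 to 0.26 in replicate 2, and its other probe gave 0.03. RCHY1, another ubiquitin ligase of p53, had 0.38 ± 0.43, with 0.89 in replicate 2 against 0.14 and 0.13 in the others. Without replicate 2, RCHY1 had 0.13. ATR, a kinase of the DNA damage checkpoint, had 0.49, 0.73 and -0.19 (0.34 ± 0.48), and 0.15 without replicate 2. TP53BP1, which binds at DNA breaks, had -0.12, 0.73 and 0.25 (0.29 ± 0.43), and 0.066 without replicate 2. PPM1D, a phosphatase that switches p53 off, exceeded background in 0 FGF18 channels and 1 control channel, so its ratio is left out. Each SD in these lists is over 3 replicates.

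Targets in growth arrest and repair (20 of 22 measured) held 3 genes higher and 3 lower in all replicates, 0 that passed, and a median of -0.02. THBS1, the matrix protein thrombospondin 1, was lower on all 6 arrays, with ratios of -0.66, -0.50 and -0.35 and a mean of -0.50 ± 0.15 (1.42-fold lower). XPC, which recognises damage in nucleotide excision repair, had 0.23, 0.61 and 0.33 by its brighter probe (0.39 ± 0.20), but its other probe gave -0.04. SESN3, a sestrin that restrains mTORC1, had 0.29 ± 0.20 and was higher on all 6 arrays. BTG2, an antiproliferative p53 target, had 0.38, -0.80 and -0.12, and ZMAT3 had -0.05 ± 0.12. SESN1 had 0.01 ± 0.19, its other probes gave -0.01 and -0.04, and by dye orientation it was -0.37 where FGF18 was in Cy5 and 0.40 where it was in Cy3.

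Among p53 targets in apoptosis (13 of 18 measured), 1 was higher and 3 lower in all replicates, 0 passed and the median was 0.03. These counts are 7.69% and 23.1% of the list, where 12.1% of all genes were higher and 12% lower. The median within replicates 1, 2 and 3 was -0.05, -0.06 and 0.03. BAX, which opens the mitochondrial outer membrane, had -0.18, 0.60 and 0.55, and FAS, a death receptor, had 0.09 ± 0.14 (0.40 where FGF18 was in Cy5 and -0.23 where it was in Cy3). BID, which links death receptors to mitochondria, was lower on all 6 arrays at -0.23 ± 0.10. CASP1, an inflammatory caspase, was lower on all 6 by its brighter probe at -0.47 ± 0.30, and its other probe gave -0.06. TRIAP1 had 0.31 ± 0.31, TP53I3 had 0.03 ± 0.12 and TP53INP1 had 0.11 ± 0.89, from 0.97 in replicate 1 to -0.81 in replicate 2 (other probe 0.04). The lowest ratio of this list, chosen for its place in the plot of pathway genes, was that of PERP at -1.19 ± 1.55, with 0.37, -2.74 and -1.2, while its other probe gave 0.02.

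Of the 12 GADD45 partners, all measured, 1 was higher and 0 lower in all replicates, 0 passed and the median was 0.05. MAP3K4, the kinase that GADD45 proteins activate, had 0.34, 0.64 and -0.25 in replicates 1, 2 and 3, and MAP2K7, which GADD45B restrains, had 0.21, -0.65 and -0.02. MAPK14, the p38 kinase downstream of MAP3K4, had 0.14 ± 0.11 (other probes 0.21 and -0.01). MAPK8, the kinase JNK1, had -1.22 ± 1.60 by its brighter probe, with 0.33, -2.86 and -1.12, and 0.07 by its other probe. APEX1, a base excision repair nuclease, had -0.20 ± 0.27.

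Stress regulators of GADD45 (13 of 13 measured) held 2 genes higher and 1 lower in all replicates, 0 that passed, and a median of 0.01. ATF4, the factor of the integrated stress response, had replicate means of 0.35, 0.26 and 0.27 (0.29 ± 0.05), above 0 on all 6 arrays. It did not pass the adjusted threshold. By dye orientation ATF4 was 0.19 where FGF18 was in Cy5 and 0.40 where it was in Cy3. NFKB1, a subunit of NF-kB, had -0.37 ± 0.33 and was lower on all 6 arrays. ZNF350, a repressor of GADD45A that acts with BRCA1, had 0.24 ± 0.27. ATF3 had 0.01 ± 0.26 and DDIT3 had 0.00 ± 0.28, both stress-induced factors. FOXO3, a factor that induces GADD45A, exceeded background in 2 FGF18 channels and 3 control channels, so its ratio of 0.05 ± 0.05 gives no fold.

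**Figure D5:**
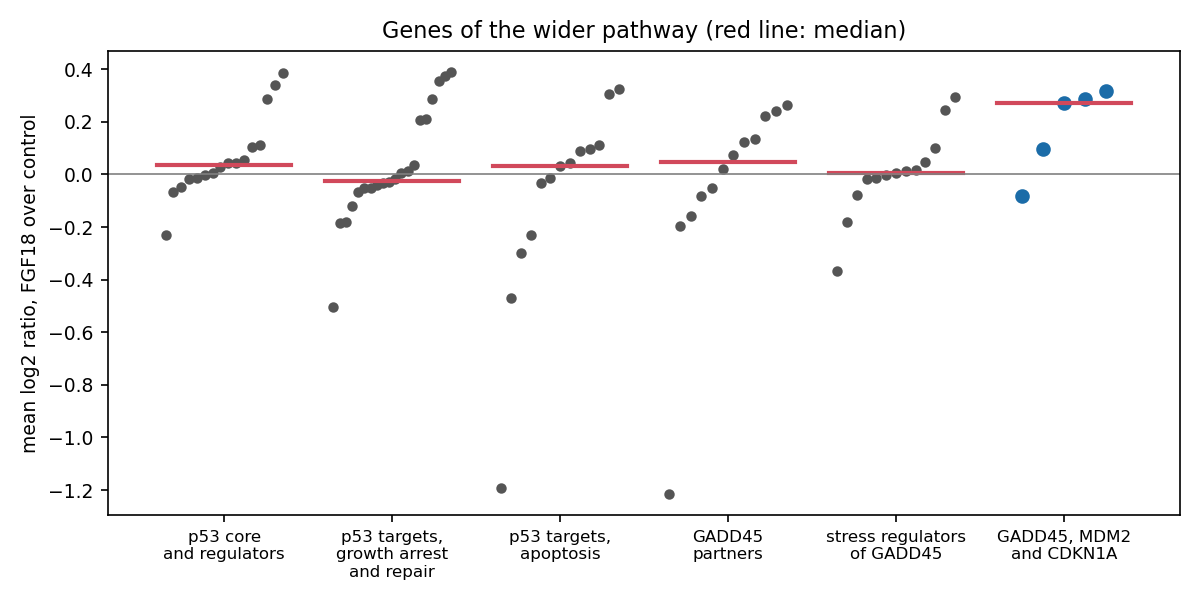
Mean log2 ratio of FGF18 over control (y axis) for each measured gene of the 5 pathway lists (grey) and for the 5 genes described first (blue), sorted within a list, with the median as a red line. List medians lie between -0.02 and 0.05, and the 2 lowest points are the brighter probes of PERP and MAPK8.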

How the data were processed

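Two-colour Agilent arrays measured RNA of FGF18-treated and untreated granulosa cells. Per the labels' protocols, the RNA was amplified in 2 T7 rounds, and Cy3 or Cy5 was attached non-enzymatically. Each deposited scanner file gives spot and local background intensity for both colours, per the file headers. The authors' deposited log2 ratios, whose processing is not stated in the sources used here, ran as FGF18 over control and had column medians from -0.0037 to 0.0019. On each array they correlated at 0.999995 or above with ratios from plain background subtraction and loess. These 2 settings are therefore nearly the same values and not separate checks.

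Intensities were processed with limma 3.58.1 (R 4.3.3): normexp (offset 50, fitted on 45220 spots), which draws ratios of dim spots toward 0, then loess (span 0.3) with control spots given a weight of 0. Every ratio was oriented as FGF18 over control, and the 2 arrays of a number were averaged before lmFit and eBayes over 15229 genes. Same-numbered arrays deviated together from their orientation mean at 0.92, 0.93 and 0.79, and titles give the numbers. Their ratios themselves correlated less, at 0.67 in replicate 1, 0.77 in replicate 2 and 0.27 in replicate 3. The names of the deposited scans give each orientation a number of its own, read here as a slide, and effects of dye and of slide cannot be told apart. Replicates 1 and 2 correlated at -0.24 across probes above background, 1 and 3 at -0.04, and 2 and 3 at 0.38. Levels came from the same values after Aquantile.

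Names came from the platform annotation (21790 of 43794 probes named, 22004 not) and were updated through RefSeq for ARS-UCD2.0, with 14114 symbols current, 982 older and 133 unmatched. No coordinates or sequences are given, since the files name no build. Members, lists and tests were chosen with earlier results of these data known. Named pathway genes were a panel of 16 and, per list, the 3 detected in both conditions with the lowest unadjusted p. The fit was tested on simulated data. Alternatives covered background, scaling, filtering, blocks, the prior of the fit, averaging over probes, dye orientation and left-out arrays.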

Additional observations from a re-analysis of the deposited data

Results flagged for a closer look

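In 3 named genes of the pathway lists, every array with FGF18 in Cy5 had the sign opposite to every array with the control in Cy5. The share of all genes that meet this rule was not counted, so the number cannot be read as high or low. SESN1 had a mean log2 ratio of -0.37 where FGF18 was in Cy5 and 0.40 where it was in Cy3, FAS had 0.40 and -0.23, and FOXO3, near background, had -0.14 and 0.24. In limma the dye term of these genes had adjusted p-values of 0.1, 0.085 and 0.1, so none passed, and over all genes it called 65 of 15229. That fit took the 6 arrays as independent, without their pairing by replicate. No group of 4 or more samples existed in which to look for a single sample apart, and GADD45 genes, MDM2 and CDKN1A were not among these cases.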

How the results depend on the processing

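Under each of 17 alternatives, 0 of all genes, 0 of the 5 GADD45 and p53 response genes and 0 of the pathway genes passed the adjusted threshold. Leaving out a replicate gave 0 to 0 for each. With the 6 arrays in 1 fit and the replicate block, counts were also 0, the lowest adjusted p of the 5 genes was 0.561, and the block changed no call. The lowest adjusted p over all alternatives was 0.238 for the 5 genes (MDM2, 6 arrays taken as independent) and 0.0987 for the pathway genes. At an unadjusted p under 0.05, 0 of the 5 genes and 531 of all genes were counted in the analysis reported. GADD45B fell under it in 9 alternatives, MDM2 in 7 and GADD45A in 1. On replicate means these included the authors' ratios and plain subtraction, which are nearly the same values (GADD45B). They also included median centring and the mean over all probes (GADD45B and MDM2). Both genes have a single probe, so the mean over all probes left their ratios unchanged and altered only the prior variance of the fit. The replicate block counted 2 of the 5 and 1200 of all genes, and the fit on independent arrays 3 and 1752. The fit with a dye term counted 2 and 1717, FGF18 in Cy5 alone 1 and 1407, and the control in Cy5 alone 1 and 1632. The other alternatives counted 312 (with the gene filter) to 685 of all genes. Alternatives share arrays and values, so the number under the threshold is not a number of separate checks.

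Among 85 values of the 5 genes under alternatives, 3 changed sign. GADD45G gave -0.051 with the control in Cy5 alone and -0.17 to 0.41 when a replicate was left out (lowest without replicate 1), and CDKN1A gave 0.0198 with median centring. GADD45A, GADD45B and MDM2 stayed above 0, from 0.11 to 0.39, 0.15 to 0.43 and 0.20 to 0.43. Not every alternative could turn a sign, here or in the named pathway genes. The gene filter, the fits on 6 arrays and the trend and robust prior left each mean ratio unchanged. Averaging over probes did so for genes with a single probe. Of 30 named pathway genes, 12 changed sign under some alternative, in 26 of 508 values, and 3 of them by more than their SD between replicates: SESN1 turned to -0.37 and FOXO3 to -0.14 with FGF18 in Cy5 alone, FAS to -0.23 with the control in Cy5 alone, and FOXO3 to -0.0093 without the control-in-Cy5 array of replicate 2, against up to 0.069 when a replicate was left out. List medians that turned and moved by more than their SD were those of growth arrest and repair (0.11 with the control in Cy5 alone, -0.046 to 0.027 with a replicate left out), apoptosis (-0.18, and -0.037 to 0.058, in the same settings) and stress regulators (-0.086 with FGF18 in Cy5 alone), and that of all genes was 0.013 with the control in Cy5 alone. The cause was not tested. The number of arrays limits the precision, as does the signal over background for MDM2 and the dimmer GADD45A probe. Amplification in 2 rounds, which can change ratios, was the same for all samples.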

Other observations

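Over the 12 channel values (2 conditions on 6 arrays, so the values share arrays and replicates and are not independent), the levels of GADD45B and GADD45G correlated at 0.73. Those of GADD45A and GADD45B correlated at 0.54, while GADD45A and GADD45G gave 0.01. MDM2 correlated at 0.53 with GADD45B and 0.50 with GADD45G, and CDKN1A gave -0.55 with GADD45A. Among 8504 other genes above background in all 12 channels, those most like GADD45A in level were HAS2, the hyaluronan synthase of the ovulatory follicle, at 0.96, NGDN at 0.94 and DHX57 at 0.93. Their Spearman correlations were 0.87, 0.83 and 0.81, and those of the genes named below 0.79 to 0.97. GADD45A was at 9.65 and 9.96 in the FGF18 channels of replicate 2 and from 8.88 to 9.26 in all other channels. Most like GADD45B were MRPL23 at 0.97, TNPO3 at 0.97 and TMED9 at 0.97, and most like GADD45G were E2F4 at 0.98, RSBN1 at 0.97 and PDCD6 at 0.97. MDM2 was most like U2AF1 at 0.95, TMOD1 at 0.95 and MED13 at 0.94, and CDKN1A like TPMT at 0.86, MSRB2 at 0.85 and TFDP2 at 0.82. The genes were picked by the highest Pearson correlations over all these genes and are given as a description. HAS2 had a ratio of 0.30 ± 0.43 (n = 3), which did not pass the test.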
